A study of Homo sapiens with 4 samples.

Results

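This account covers 10 genes around the transcription factor NF-kappaB in Caco-2 cells exposed to the bile acid cholate: the feedback and pathway genes NFKBIA, NFKBIZ, TNFAIP3 and RELB, the interleukin genes IL1B and IL18, the chemokine genes CXCL8, CXCL1 and CCL20, and the adhesion molecule gene ICAM1. They were picked by symbol, with earlier results of these data known. Counts of members set beside the share of all genes are therefore descriptions and no independent check. Each had exactly 1 probe set annotated with that symbol alone, so 10 probe sets stand for 10 of the 18417 genes with 1 listed symbol. All 10 had a mean over the arrays above the floor, a log2 intensity of 4.84 (the 40th percentile of all probe sets), as did 12900 genes in all.

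Caco-2 is an established human colorectal adenocarcinoma line that comes to resemble small intestinal enterocytes once confluent. The 4 conditions were a regular 6-well plate with vehicle, the plate with 2 mM cholate, a collagen-coated Transwell insert (a porous membrane separating an apical from a basolateral side) with vehicle, and the insert with 2 mM cholate. Exposure lasted 3 h, and on the insert cholate was given apically. Each condition was 1 array, carrying pooled RNA from 3 samples, so no condition was measured again and the number of arrays limits the precision. Per the labels all cells had differentiated for 21 days, but the growth protocol gives 14 days for plates and 14 to 21 for inserts. Cholate was added in a calcium-free buffered salt solution, and what the vehicle contained is not stated in the labels. Growth time, coating and vessel therefore cannot be told apart from the support.

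NF-kappaB dimers are held in the cytoplasm by inhibitor proteins of the IkappaB family. Inflammatory stimuli trigger breakdown of these inhibitors, the dimers enter the nucleus, and among the first genes they transcribe are the inhibitors themselves, which closes a negative feedback loop. In the gut epithelium the same factor drives chemokines that recruit leukocytes and adhesion molecules that hold them. The IL1B and IL18 proteins are made as precursors that caspase-1, in complexes called inflammasomes, cuts into active cytokines, so their RNA levels say nothing on their own about secretion.

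The DNA upstream of these genes is shown first because binding sites for NF-kappaB, called kB sites, are what the members of this pathway are best known to share. Sequences were available from RefSeq for 8 of the 10 genes, as windows of 250 bases ending just before an annotated transcription start (build GRCh38.p14); IL18 and RELB had no entry. Both strands were searched for the consensus kB decamer and for the shorter palindrome GGAANTTCC, which can overlap it. The palindrome was chosen after the member sequences had been seen. At least 1 of the 2 motifs lay in a window of 7 of the 8 genes, and in 10.4% of all 35116 windows of this length. The decamer was found upstream of 5 of the 8 genes and in 9.96% of all windows, the palindrome upstream of 5 and in 0.826%. The member counts are per gene, over 9 windows for the 8 genes, whereas the percentages are per window, so the measures differ. Below, 8 bases flank each match and capitals mark the matched bases; coordinates in the next paragraph cover the printed stretch, flanks included.
NFKBIA: actggcttGGAAATTCCCcgagcctg
NFKBIZ: tttggtctGGGAATTTCCagtgtgca
CXCL1: ggaactccGGGAATTTCCCtggcccgg
CXCL8: caaatcgtGGAATTTCCtctgacat
ICAM1: tttagcttGGAAATTCCggagctga
TNFAIP3: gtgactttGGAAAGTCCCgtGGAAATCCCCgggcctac
CCL20: atcaatggGGAAAACCCCatgtggca

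The NFKBIA match lay 81 to 72 bases before the start (printed stretch chr14:35404813-35404838, minus strand) and the CXCL1 match 79 to 69 bases before it (printed stretch chr4:73869306-73869332, plus strand). CXCL8 was matched by the palindrome alone (chr4:73740470-73740494, plus strand), as was ICAM1 (chr19:10270926-10270950, plus strand). TNFAIP3 carried 2 decamers separated by 2 bases (chr6:137867184-137867221, plus strand), and CCL20 carried 1 (chr2:227813755-227813780, plus strand). NFKBIZ has 2 starts in the table, and the match shown (printed stretch chr3:101827759-101827784, plus strand) belongs to the first; the other start had a decamer 239 to 230 bases upstream. A match is a run of letters and not evidence of binding in these cells.

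The windows of NFKBIA and IL1B are printed whole, the former because NFKBIA was among the members highest in cholate relative to vehicle, the latter because IL1B had the widest difference between supports of the 10 genes. The NFKBIA window (chr14:35404750-35404999, minus strand) holds the decamer shown above. The IL1B window (chr2:112836780-112837029, minus strand) held neither kB motif, which says only that those letters are not in these 250 bases.
NFKBIA: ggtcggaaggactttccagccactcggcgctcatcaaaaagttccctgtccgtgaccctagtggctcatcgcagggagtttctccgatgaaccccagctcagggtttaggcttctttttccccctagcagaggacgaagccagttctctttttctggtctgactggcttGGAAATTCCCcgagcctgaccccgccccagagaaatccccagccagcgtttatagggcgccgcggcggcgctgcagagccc
IL1B: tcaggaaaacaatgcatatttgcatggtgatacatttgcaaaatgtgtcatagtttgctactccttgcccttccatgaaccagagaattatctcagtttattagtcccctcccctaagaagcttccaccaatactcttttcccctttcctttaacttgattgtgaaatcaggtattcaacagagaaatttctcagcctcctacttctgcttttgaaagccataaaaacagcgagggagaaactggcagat

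Levels are given below as log2 intensities for plate vehicle, plate cholate, Transwell vehicle and Transwell cholate, in that order. Intensities of different probe sets are not comparable, so each gene is compared only with itself. A gene is called different between 2 arrays at 1.5-fold, a log2 difference of 0.58, with no p-value. The 4 pairwise comparisons share arrays: plate vehicle, for example, enters both the cholate response on the plate and the support difference in vehicle.

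The IkappaB family genes NFKBIA and NFKBIZ read at least 1.5-fold higher in cholate than in vehicle on the plate. On Transwell their differences had the same sign but stayed under 1.5-fold. NFKBIA encodes IkappaB alpha, the inhibitor that is degraded and resynthesised in the feedback loop. It read 9.37, 10.04, 8.92 and 9.25. The plate cholate array was the highest of the 4 and Transwell vehicle the lowest, and the Transwell cholate array stayed below plate vehicle. Its cholate array exceeded its vehicle array by 0.67 log2 on plates (1.60-fold) and by 0.32 on inserts (1.25-fold). In bulk pools such as these, fewer cells of a type and less RNA per cell cannot be told apart.

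NFKBIZ encodes IkappaB zeta, a nuclear member of the same protein family that acts as a cofactor for a subset of NF-kappaB targets. It read 8.64, 9.31, 7.90 and 8.32, the same order of arrays as NFKBIA. Its cholate response was 0.67 log2 on plates (1.59-fold) and 0.42 on inserts (1.34-fold). Among the 12900 genes, NFKBIA and NFKBIZ stood at places 144 and 146 from the highest response on the plate and at places 346 and 152 on Transwell.

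The other feedback gene and the NF-kappaB subunit gene did not share this pattern. TNFAIP3 encodes A20, a ubiquitin-editing enzyme that shuts off signalling upstream of IkappaB breakdown, and it read 8.65, 8.47, 8.15 and 8.17. Its cholate responses were -0.18 log2 on plates and 0.02 on inserts, the latter between -0.03 and 0.03 under 3 other scalings and so without a settled sign. RELB, a subunit of the non-canonical pathway, read 6.81, 6.32, 6.60 and 6.61. Its plate cholate array stood apart below the other 3, at -0.49 log2 from plate vehicle, short of 1.5-fold. On inserts its response of 0.01 changed sign under other scalings (-0.03 at the lowest).

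**Figure D1:**
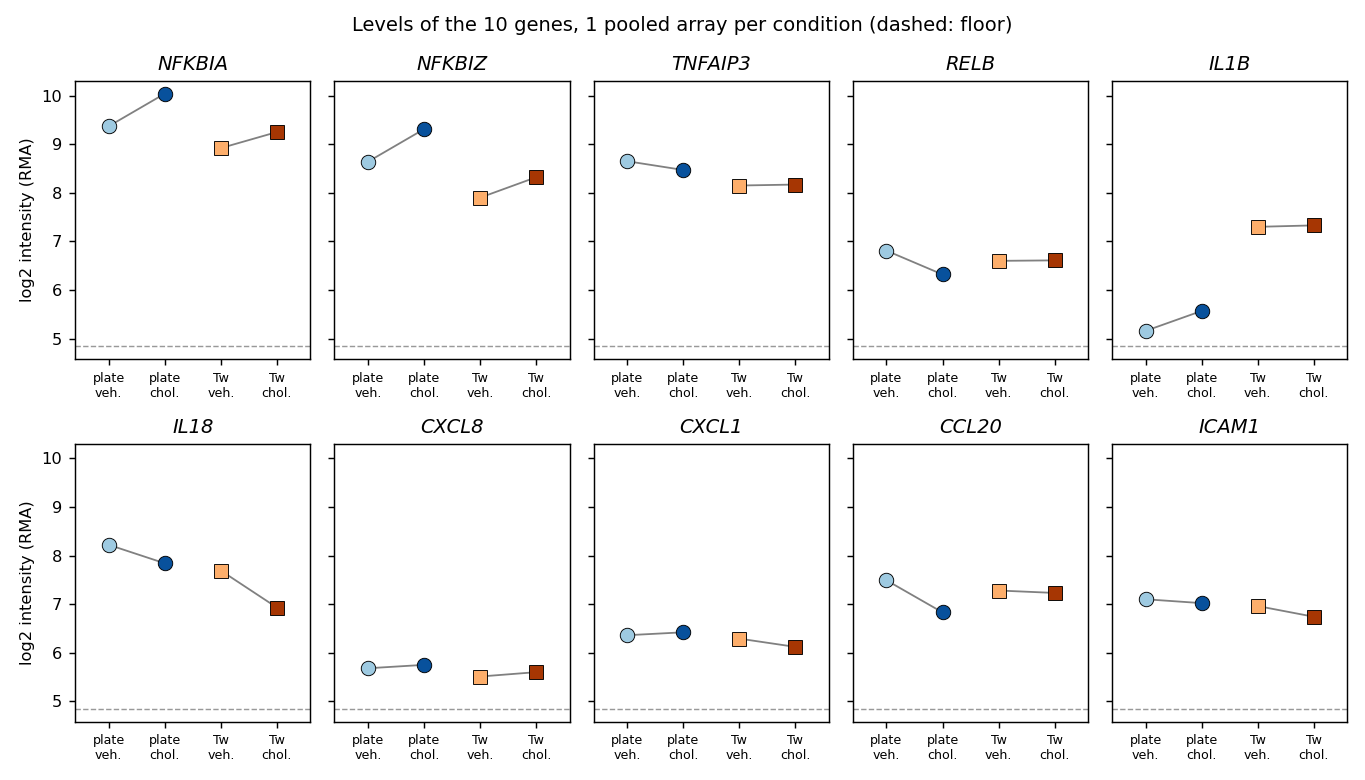
Log2 intensity (vertical axis) of each of the 10 genes on the 4 arrays (horizontal axis: plate or Transwell, Tw, with vehicle or cholate); every point is 1 pooled array, lines join vehicle and cholate of a support, and the dashed line is the floor of 4.84. NFKBIA and NFKBIZ differ between cholate and vehicle by 0.67 on the plate and by 0.32 and 0.42, under 1.5-fold, on Transwell. IL1B is near 7.3 on both Transwell arrays and at 5.16 and 5.57 on the plate. CXCL8 and CXCL1 are nearly flat, CXCL8 at a level not far above the floor.

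The 2 interleukin genes behaved differently from each other. IL18 encodes a cytokine that intestinal epithelium makes constitutively. It read 8.22, 7.84, 7.69 and 6.93. Both cholate arrays were below the vehicle array of their support, and the Transwell cholate array was the lowest. Cholate minus vehicle was -0.38 log2 on plates and -0.76 on inserts, where vehicle was 1.70-fold above cholate. On Transwell IL18 was place 40 from the lowest response of the 12900 genes.

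IL1B, the gene of interleukin 1 beta, read 5.16, 5.57, 7.30 and 7.33. It was the single member whose Transwell arrays both lay far above its plate arrays. On the plate it was near the floor, where RMA compresses differences. Its cholate response was 0.41 log2 on plates and 0.02 on inserts, the latter between -0.02 and 0.03 under other scalings.

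The chemokine genes did not show a common cholate response. CCL20, which attracts lymphocytes and dendritic cells bearing CCR6, read 7.49, 6.83, 7.28 and 7.23. The plate cholate array was the lowest, at -0.66 log2 from plate vehicle (vehicle 1.58-fold above cholate), whereas the Transwell response was -0.05. CCL20 and RELB had closely similar profiles, with a root mean square difference of 0.067 log2 after each was centred on its own mean over the 4 arrays.

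CXCL8, the main neutrophil attractant of human epithelium, read 5.68, 5.75, 5.51 and 5.60. Its 4 values spanned 0.24 log2, the narrowest range of the 10 genes. CXCL1, another neutrophil chemokine, read 6.36, 6.42, 6.29 and 6.12, a range of 0.31. Cholate responses of CXCL8 were 0.07 on the plate and 0.09 on Transwell, and those of CXCL1 were 0.07 and -0.17. Under other scalings the plate values were 0.00 to 0.01 for CXCL8 and -0.01 to 0.02 for CXCL1.

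ICAM1, the endothelial and epithelial ligand of leukocyte integrins, read 7.10, 7.02, 6.96 and 6.74. It varied by 0.36 log2 over the 4 arrays and its cholate responses were -0.08 and -0.22. Its centred profile was closest to that of CXCL1 among the members (root mean square difference of 0.0557). This measure is not scaled to a gene's range, so genes that vary little are close by it whatever their order of arrays.

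Counted together, 2 of the 10 genes (NFKBIA and NFKBIZ) were at least 1.5-fold higher in cholate on the plate, against 1.49% of all 12900 genes, and 1 (CCL20) was lower, against 2.35%. On Transwell 0 of 10 were higher, against 0.357%, and 1 (IL18) was lower, against 0.736%. Because the members were chosen with earlier results of these data known, these shares only describe the 4 arrays. The median over the members was -0.01 log2 on plates and 0.01 on inserts, and over all genes -0.03 and -0.01. Single members lay on both sides of these medians: the plate responses ran from -0.66 to 0.67.

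The only test the 4 arrays allow pools both supports in an additive limma model with 1 residual degree of freedom, which is the difference between the 2 cholate responses. The pooled cholate effect was 0.55 log2 for NFKBIZ (SE 0.11, limma adjusted p = 0.358), 0.50 for NFKBIA (SE 0.12, adjusted p = 0.404) and -0.57 for IL18 (SE 0.13, adjusted p = 0.391). No member passed at an adjusted p under 0.05, and 0% of the 19978 probe sets above the floor did; 2162 of them, or 10.8%, had an unadjusted p under 0.05, as did these 3 members. The smallest adjusted p of any probe set was 0.312. The responses of the members on the 2 supports differed by up to 0.61 log2 (CCL20), a difference that has no test.

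**Figure D2:**
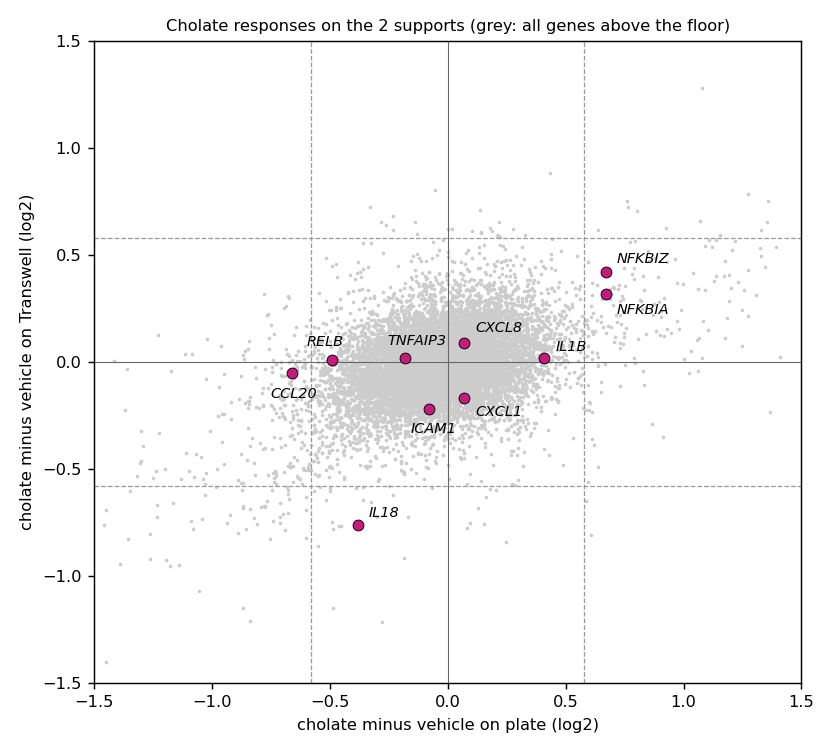
Log2 cholate response on the plate (horizontal) against that on Transwell (vertical) for the 10 genes (pink) and all 12900 genes above the floor (grey; 36 lie outside the axes); dashed lines mark 1.5-fold. NFKBIA and NFKBIZ lie past 1.5-fold on the plate and at 0.32 and 0.42 on Transwell, IL18 is past it on Transwell alone and CCL20 on the plate alone.

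On Transwell inserts IL1B read higher than on the plate in both treatments, while NFKBIZ read lower past 1.5-fold in both and NFKBIA and IL18 in cholate. IL1B was 2.15 log2 higher than on the plate in vehicle (4.42-fold) and 1.76 higher in cholate (3.38-fold). Because the plate values lay near the floor, the fold may be understated. It was place 5 of the 12900 genes in vehicle and place 11 in cholate. The pooled support difference was 1.95 log2 with a limma SE of 0.13 and an adjusted p of 0.0858, which equals the smallest of any probe set. Over 5 alternatives the adjusted p ran from 0.0282 to 0.171, and only an intensity trend in the variance prior (0.0282) took it under 0.05.

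The 7 members NFKBIA, NFKBIZ, TNFAIP3, IL18, CXCL8, CXCL1 and ICAM1 were lower on Transwell than on the plate in both treatments, at any size, against 33.2% of all genes; these signs held under the 3 other scalings. NFKBIZ had the largest differences, at -0.74 log2 in vehicle (plate 1.67-fold above Transwell) and -0.99 in cholate (1.99-fold). NFKBIA was at -0.45 and -0.80, IL18 at -0.53 and -0.91, and TNFAIP3 at -0.50 and -0.30. CXCL8, CXCL1 and ICAM1 differed by at most 0.31 log2 in either treatment. RELB (-0.21 and 0.30) and CCL20 (-0.21 and 0.40) changed sign between the treatments; in both genes plate cholate was the lowest array.

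At 1.5-fold, 1 member (IL1B) was higher on Transwell in vehicle, against 1.93% of all genes, and 1 (NFKBIZ) lower, against 3.16%. In cholate 1 member (IL1B) was higher, against 4.02%, and 3 (NFKBIA, NFKBIZ and IL18) lower, against 3.75%. The members' median was -0.21 log2 in vehicle and -0.29 in cholate, and that of all genes 0.02 in each. Over the 4 comparisons, 5 of the 10 genes reached 1.5-fold at least once, against 11.8% of all genes. The choice of members was made with earlier results of these data known, so this contrast is no independent check. The pooled support difference was -0.86 for NFKBIZ (SE 0.11, limma adjusted p = 0.105), -0.72 for IL18 (SE 0.13, adjusted p = 0.123) and -0.62 for NFKBIA (SE 0.12, adjusted p = 0.132). In this fit 0% of probe sets passed an adjusted p under 0.05, while 4519 of 19978 (22.6%) and 5 members had an unadjusted p under it. With the intensity trend NFKBIZ had an adjusted p of 0.048, within a range of 0.048 to 0.194 over the alternatives. Of the 8 epithelial markers, 4 were higher and 4 lower on inserts in each treatment, with a median of -0.04 log2. CDX2 reached 1.5-fold in vehicle (8.68 on the plate, 9.68 on inserts; 8.92 and 9.48 in cholate), and KRT20 in cholate (0.83 log2 higher on inserts; 0.39 in vehicle). CDH1, KRT8 and KRT18 had negative differences in both treatments, the lowest being -0.31 log2. Their part in the members' support differences was not tested.

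**Figure D3:**
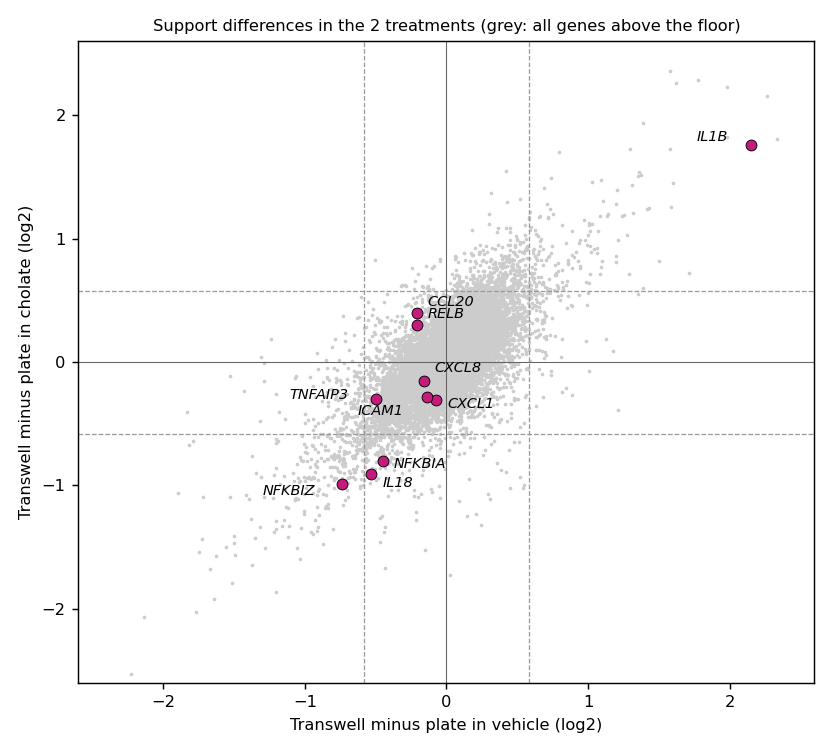
Log2 difference of Transwell minus plate in vehicle (horizontal) against that in cholate (vertical) for the 10 genes (pink) and all 12900 genes above the floor (grey; 2 lie outside the axes); dashed lines mark 1.5-fold. IL1B stands at 2.15 and 1.76, while NFKBIZ, IL18 and NFKBIA form the lower group and RELB and CCL20 are below 0 in vehicle and above 0 in cholate.

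Other genes of the pathway were read from 10 lists of 98 genes, of which 91 had a probe set with 1 symbol and 55 lay above the floor. For cholate at 1.5-fold 0 were higher and 1 lower on the plate, against 1.49% and 2.35% of all genes, and 0 were higher or lower on Transwell, against 0.357% and 0.736%. With 55 genes these counts are near the share of all genes. Their medians were -0.01 and -0.02 log2. None of these genes passed limma for either effect at an adjusted p under 0.05.

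Among the NF-kappaB subunits, listed in full after their values were seen, NFKB1 responded to cholate by -0.50 log2 on plates and -0.25 on inserts, NFKB2 by -0.37 and -0.24, REL by 0.22 and 0.26, and RELA by 0.12 and -0.05. The 7 measured IkappaB and IKK genes beside NFKBIA and NFKBIZ ranged from -0.31 to 0.38 on the plate and from -0.18 to 0.20 on Transwell. Further feedback and survival targets (8 above the floor) ranged from -0.23 to 0.30 and from -0.06 to 0.34. None of these 3 lists had a gene at 1.5-fold in any comparison, so the size of the NFKBIA and NFKBIZ responses on the plate was not reached by any other IkappaB gene above the floor. That contrast between genes was not tested.

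Receptors of IL1B were measured above the floor, and those of IL18 and the member chemokines were not. IL1R1, the signalling receptor of interleukin 1, read 7.92, 7.21, 7.25 and 6.85, with cholate responses of -0.71 and -0.40 log2; it was the 1 pathway gene above the floor past 1.5-fold for cholate, on the plate. Its Transwell minus plate difference was -0.67 in vehicle, also past 1.5-fold, and -0.36 in cholate, opposite in sign to that of IL1B. Both chains of the IL18 receptor, IL18R1 and IL18RAP, were under the floor on all arrays, at no more than 3.25. CXCR1, CXCR2 and CCR6, the receptors of the member chemokines, were also all under the floor. The 11 receptors and adaptors upstream of NF-kappaB ranged from -0.35 to 0.17 on the plate and from -0.40 to 0.11 on Transwell.

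Among inflammasome and caspase genes, which act on the protein products of IL1B and IL18, 6 of 10 measured were above the floor. On Transwell against plate 0 of the 6 reached 1.5-fold in vehicle, against 1.93% of all genes higher and 3.16% lower. In cholate 2 were higher, CASP4 and CASP5, against 4.02%, and 0 lower, against 3.75%. Over all 55 pathway genes above the floor, 1 was higher and 1 lower in vehicle. In cholate 2 of the 55 were higher and 0 lower. The median of the 6 was 0.39 log2 in vehicle and 0.28 in cholate, against 0.02 for all genes, and PYCARD (0.02 and 0.08) and CARD8 (0.09 and 0.10) were close to the latter. CASP5, an inflammatory caspase that senses lipopolysaccharide, read 6.54, 5.99, 7.12 and 6.93, at 0.57 and 0.94 on Transwell minus plate. CASP4, its close relative, read 9.42, 9.13, 9.86 and 9.87, at 0.45 and 0.74. CASP1 itself, singled out after its values were seen, was at 0.53 and 0.46, under 1.5-fold in each. The sensor genes NLRP3, NLRP6, NLRC4 and AIM2 had means under the floor.

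Of the remaining lists, those of other chemokines and of adhesion molecules held few genes above the floor, unlike that of other cytokines. Of 14 other chemokine genes with a probe set, 4 were above the floor, ranging from -0.14 to 0.11 on the plate and from -0.14 to 0.34 on Transwell for cholate. CXCL10, singled out after its values were seen, had a mean under the floor and read 4.89 in vehicle and 3.89 in cholate on Transwell, where only the former is above it. Of 9 other cytokine genes measured, 8 were above the floor, with median cholate responses of 0.18 and 0.08 and a highest response of 0.25. Of the other adhesion molecules and integrin chains 2 of 7 were above the floor; ICAM3, a leukocyte adhesion molecule, was higher on Transwell by 0.73 log2 in vehicle and 0.56 in cholate.

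**Figure D4:**
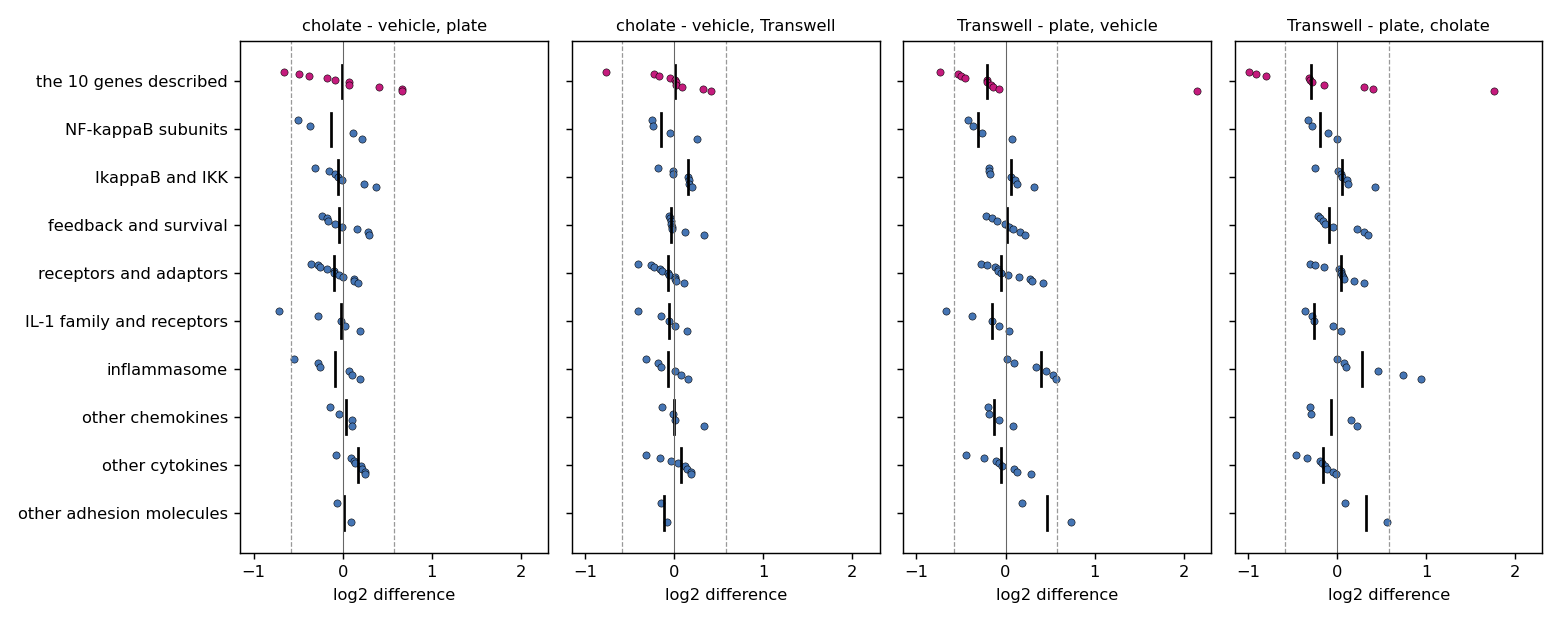
Log2 differences (horizontal axes) of the 10 genes (pink) and of the pathway genes above the floor (blue) by list, in the 4 comparisons; each point is a gene, black bars are list medians and dashed lines mark 1.5-fold. The lists lie mostly within 1.5-fold, whereas the 10 genes reach from -0.99 to 2.15.

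Over all 4 arrays, the genes with the most similar centred profiles were sought for the 3 members of widest range, among 12899 other genes. Nearest to NFKBIZ were MAFF, a small MAF transcription factor (root mean square difference 0.0533 log2), PPP1R15A, the stress-induced phosphatase subunit GADD34 (0.0561), and GDF15, a stress-induced cytokine (0.0671). These 3 had cholate responses of 0.69, 0.79 and 0.70 on the plate and 0.34, 0.39 and 0.27 on Transwell. The difference between NFKBIA and NFKBIZ was 0.125. The 3 genes were picked as the nearest of 12899, so every other gene is at least as far by construction.

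Nearest to IL1B were SLC51A, one chain of a bile acid exporter (0.0893), the fatty acyl reductase gene FAR2 (0.183) and the amino acid transporter gene SLC7A9 (0.221). SLC51A read 6.69, 7.28, 9.02 and 9.09. Nearest to IL18 were LRP2, the endocytic receptor megalin (0.0711), CLTRN, the collectrin gene (0.0745), and GCM1, a transcription factor of placental development (0.0857). LRP2 read 10.46, 9.94, 9.74 and 9.09. With 4 values to a gene, such likeness is a description of these arrays.

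The cell line label was checked against markers. All 8 intestinal epithelial markers were above the floor on every array, with summed log2 levels of 89.09 to 90.27. Such sums can be compared between arrays for the same markers, not between cell types, and can hide changes of single markers. Of 11 measured leukocyte markers, 7 were above the floor on each array, with a summed level over all 11 of 60.09 to 60.93. The 7 were CD14, CD68, CSF1R, AIF1, LYZ, CD79A and NKG7. The pan-leukocyte gene PTPRC, with CD163, CD3E and MS4A1, lay under the floor on all arrays, PTPRC at 2.87 to 3.05. Of 9 fibroblast and endothelial markers, 5 were above the floor on each array (COL1A1, COL1A2, COL3A1, PDGFRA and PECAM1), with sums over all 9 of 44.60 to 45.43. Passing the floor therefore does not by itself show which cell types were present. Some of these markers passed 1.5-fold in the comparisons made for the members. CD68 was at -0.64 log2 and PECAM1 at 0.70 on Transwell minus plate in cholate, and PDGFRA at -0.77 for cholate on the plate. CD14 (0.12 in vehicle and 0.40 in cholate) and LYZ (0.17 and 0.28) were above 0 on Transwell minus plate, under 1.5-fold. The part of such markers in the members' differences was not tested.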

How the data were processed

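The authors deposited log2 intensities, 1 for each of 33297 probe sets and 4 arrays. RMA is the method that the submitters' processing notes name for them; it corrects background, normalizes between arrays and summarises probes (software and version not given in the sources used here). Such normalization hides a shift shared by most transcripts. Array medians were 5.64 to 5.73. Probe sets were named from the platform annotation, checked by gene number against RefSeq (GRCh38.p14); 19460 had 1 symbol and 1754 several, none of the latter holding a member symbol. A gene was represented by its probe set of highest mean. Differences between 2 arrays have no replicate check. The additive model of support and treatment used limma 3.58.1 in R 4.3.3, 2-sided, over the 19978 probe sets at or above the 40th percentile. Benjamini-Hochberg adjustment ran over all of them, with 1 residual and 2.83 prior degrees of freedom. The code was tried on simulated data with planted effects larger than the pooled effects of the members. That trial does not show what the model could detect here. The model's standard errors do not measure the spread between cultures. From each pathway list the text names at most 4 genes above the floor that reached 1.5-fold, by size, and the 3 genes nearest in profile for the 3 members of widest range; exceptions are marked. The members and lists were chosen with earlier results of these data known. Alternatives were 3 other scalings (median centring, quantile, cyclic loess), the mean of a gene's probe sets, no floor, a floor at the 60th percentile (6.57), 2-fold, and a variance trend.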

Additional observations from a re-analysis of the deposited data

Results flagged for a closer look

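Some members pointed one way under one condition and the other way under the other, with 1 array per condition, so these differences were not tested. TNFAIP3 responded to cholate by -0.18 log2 on plates and 0.02 on inserts. RELB responded by -0.49 and 0.01, and its Transwell minus plate difference was -0.21 in vehicle and 0.30 in cholate. CXCL1 responded by 0.07 and -0.17. CCL20 had a Transwell minus plate difference of -0.21 in vehicle and 0.40 in cholate. The values of 0.02, 0.01 and 0.07 changed sign under at least 1 other scaling.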

How the results depend on the processing

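The counts of members at 1.5-fold in the 4 comparisons were the same after median centring, quantile normalization and cyclic loess. Averaging of probe sets and removal of the floor could not change them. Each member had 1 probe set and lay above the floor. A floor at the 60th percentile left 7 members and dropped IL1B, CXCL8 and CXCL1. Without IL1B, the members higher on Transwell went from 1 to 0 in each treatment. At 2-fold, members higher (2) and lower (1) in cholate on the plate, lower on Transwell (1), and lower on Transwell than on the plate in vehicle (1) and in cholate (3) all became 0; IL1B stayed. For the additive fit, 0 probe sets passed for cholate under every alternative. For support 0 passed in the reported fit and 105 were higher and 188 lower with an intensity trend, IL1B and NFKBIZ among them; the cause was not tested. Of 368 member values recomputed, 358 kept their call at the threshold in use, although some values near 0 changed sign between scalings. The 368 include differences between arrays that averaging of probe sets and a changed floor could not alter. No paired analysis was possible because each condition had 1 array and the labels carry no replicate numbers; leaving out an array leaves no residual degree of freedom. Values near the floor limit what can be read for IL1B on the plate and for CXCL8.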
